A study of Mus musculus with 32 samples.

Results

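The genes described here encode the enzymes that join glutathione, glucuronic acid or sulfate to drugs, hormones and endogenous waste: the glutathione S-transferases (Gst), the UDP-glucuronosyltransferases (Ugt) and the sulfotransferases (Sult) of the mouse. They were chosen by name alone, as the protein-coding genes whose GENCODE M21 symbol starts with Gsta, Gstk, Gstm, Gsto, Gstp, Gstt or Gstz, with Ugt1, Ugt2 or Ugt3, or with Sult and a number, a rule that uses no measured value. Of the 25040 genes with a symbol in the files of all 3 assays, 50 were members, namely 22 Gst, 12 Ugt and 16 Sult genes. A further 14 annotated genes of these families, among them most of the Ugt1a locus, were not analysed here.

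Glutathione S-transferases catalyse the attack of the thiol of glutathione on electrophiles, and glutathione also binds platinum drugs inside cells. Glucuronosyltransferases sit in the endoplasmic reticulum and use UDP-glucuronic acid, whereas the cytosolic sulfotransferases use the sulfate donor PAPS, and both make lipophilic compounds such as bilirubin, steroids and phenols soluble enough to leave in bile or urine. Liver is the organ best known for these reactions, with kidney next.

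The study measured DNA damage, its excision repair and RNA in kidney, liver, lung and spleen after cisplatin, a platinum drug that links neighbouring guanines of a DNA strand. Damage-seq reads mark adducts still in the DNA, XR-seq reads are the short oligomers that nucleotide excision repair has cut out, and both were counted per gene, once for the strand that RNA polymerase reads (the transcribed strand, TS) and once for its complement (the non-transcribed strand, NTS). RNA-seq counted poly-A selected RNA per gene without regard to strand. There were 2 biological replicates for each organ and assay, 32 libraries in all, of which the 8 RNA control libraries came from mice without the drug. All groups were wild-type C57BL/6J females aged 6 to 7 months. The cisplatin groups had received a single intraperitoneal dose of 10 mg per kg and the control group an equal volume of saline. By the treatment protocol and the study's methods the organs were taken 4 h after treatment, although the labels read 2 h. A note with the data states that the control and cisplatin labels of lung and spleen RNA were exchanged in a later correction, and the corrected labels were used.

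Reads on genes per library ranged from 1571167 to 6441367 in Damage-seq, from 10658675 to 59779770 in XR-seq and from 15619474 to 162270280 in RNA-seq. In lung and in spleen the counts of the 2 RNA control libraries differed by little more than sampling noise (chi-square over degrees of freedom of 2.75 and 2.98, against a limit of 3), and each pair was summed and counted as 1 sample. The defining markers of kidney tubule, hepatocytes, lung epithelium and of B and T cells were highest in the organs so labelled. The spleen cisplatin libraries stood apart, with summed RPKM (reads per kilobase of exon, scaled to the depth of the library on genes) of 6 pancreas acinar markers of 912 and 674 against 7.26 and 6.61 in the controls, and all 6 were called higher after cisplatin. In spleen cisplatin replicate 1 the 6 hepatocyte markers summed to 179 RPKM, against 16.0 and 5.78 in the controls and 0.136 in cisplatin replicate 2, where 4 of the 6 were at 0. In lung the 6 adipocyte markers summed to 704 and 699 RPKM in the controls and 165 and 63.9 after cisplatin, and the 6 B and T cell markers to 152 and 152 against 49.8 and 36.9. The lung epithelial markers did not follow these differences, at 112047 and 113195 RPKM in the controls and 108659 and 128652 after cisplatin. In such bulk samples fewer cells of a type and less RNA per cell cannot be told apart.

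Liver held the most RNA of these genes, followed by kidney, lung and spleen. The summed level of the 50 genes was 3461 and 4727 RPKM in the 2 liver controls, 2509 and 2516 in kidney, 903 and 893 in lung and 159 and 151 in spleen, so that the organs did not overlap. Gst genes made up the bulk in lung and spleen, with 833 and 822 RPKM in lung and 148 and 141 in spleen, while the 12 Ugt genes together reached 2.04 and 2.50 RPKM in lung and 0.335 and 0.181 in spleen against 1040 and 1086 in liver and 550 and 567 in kidney. In controls 38 of the 50 genes had a mean of at least 1 RPKM in liver, 27 in kidney, 20 in lung and 15 in spleen.

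**Figure D1:**
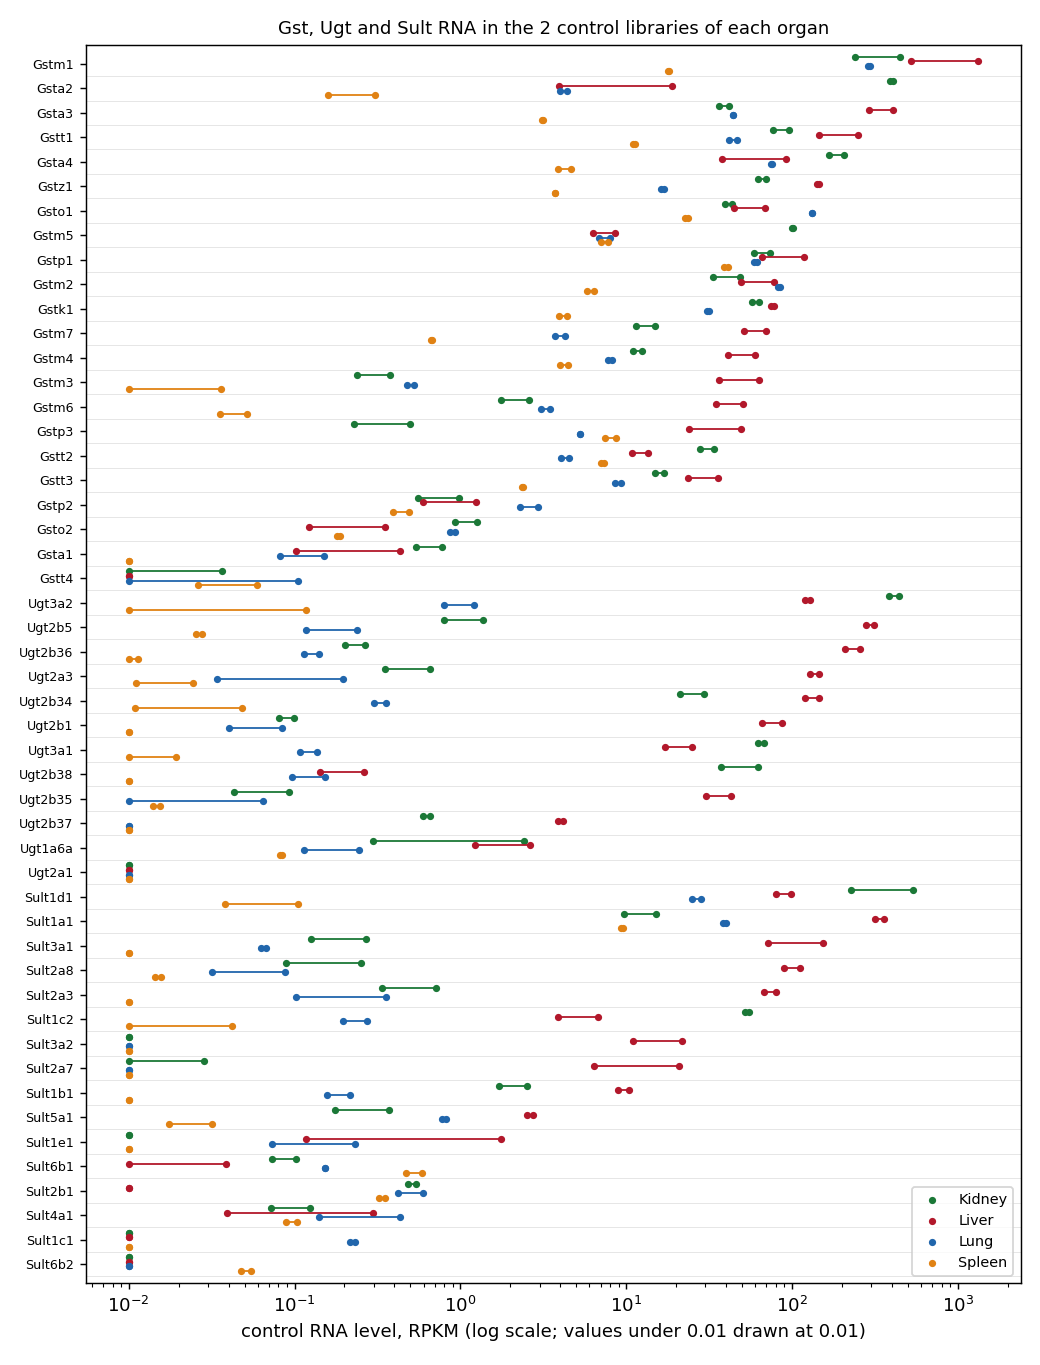
RNA level of each of the 50 genes (y axis) in RPKM on a log axis, with 1 point for each of the 2 control libraries of an organ and a line between them; levels under 0.01 are drawn at 0.01. Most Ugt2, Sult2 and Sult3 genes have liver points far to the right of the other organs, while Gstm1, Gstp1 and Gsto1 have points above 10 in all 4 organs.

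In the 2 libraries of each control group, values are given as replicate 1 and replicate 2. Among the glutathione S-transferases, Gstm1, a mu class enzyme with broad activity on electrophiles, was the most abundant member in liver with 525 and 1323 RPKM, and it also stood at 238 and 446 in kidney, 294 and 289 in lung and 18.0 and 17.7 in spleen. Both liver controls were above all others, the kidney controls lay on either side of the lung controls, and spleen was lowest. Gsta2, an alpha class enzyme with peroxidase activity, was mainly a kidney transcript at 406 and 388 RPKM, against 3.92 and 18.8 in liver, 0.307 and 0.16 in spleen and 4.42 and 3.98 in lung. Kidney was above and spleen below the other organs, while the liver replicates lay on either side of the lung values. Gsta3, of the same class, was instead highest in liver at 291 and 404 RPKM, with 36.0 and 41.4 in kidney and 44.0 and 43.9 in lung. Gsto1, an omega class enzyme that reduces arsenic compounds, was highest in lung at 132 and 131 RPKM, with 44.8 and 69.1 in liver, 39.6 and 43.7 in kidney and 23.7 and 22.6 in spleen. Gstp1, the pi class enzyme often studied in drug resistance, was the most abundant member in spleen at 40.9 and 39.0 RPKM, with 59.4 and 73.7 in kidney, 59.0 and 61.2 in lung and 65.9 and 118 in liver. Spleen lay below the other organs, and kidney overlapped both liver and lung.

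Among the glucuronosyltransferases, Ugt2b5 and Ugt2b36 led in liver with 278 and 314 RPKM and with 210 and 257 RPKM. In kidney the pair Ugt3a2 and Ugt3a1 led, at 384 and 444 RPKM and at 68.1 and 62.4 RPKM. The Ugt3 enzymes use sugars other than glucuronic acid. Ugt2b38 was high in kidney alone, with 62.5 and 37.2 RPKM against 0.142 and 0.262 in liver, although it lies with Ugt2b5, Ugt2b36 and 6 other Ugt2 members within 601 kb (mm10, chr5:86889767-87490871). In lung Ugt3a2 led with 0.792 and 1.21 RPKM, followed by Ugt2b34 with 0.302 and 0.355, and in spleen Ugt1a6a with 0.0839 and 0.082 and Ugt3a2 with 0.117 and 0.0076. Among the sulfotransferases, Sult1d1, which acts on catecholamines, led in kidney at 538 and 226 RPKM, followed by Sult1c2 at 55.0 and 52.1. Sult1a1, the main phenol sulfotransferase, led in liver at 318 and 359 RPKM, in lung at 39.8 and 38.3 and in spleen at 9.56 and 9.30, and Sult3a1 came second in liver at 155 and 71.6. Sult1d1 was second in lung at 24.9 and 28.2 RPKM, and Sult6b1 was second in spleen at 0.583 and 0.471. Outside liver and kidney, only Sult1a1 and, in lung, Sult1d1 passed 1 RPKM among the Sult genes.

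To see which genes belonged to which organ, the control libraries of each pair of organs were compared by the edgeR quasi-likelihood test. The test was against a log2 difference of 0.4, and a gene was counted when it passed against each of the 3 other organs. Lung and spleen each entered as 1 summed control sample, so the spread came from the kidney and liver control pairs alone. Of the 47 members tested, 26 were higher in liver than in each other organ, where 6.30% of all genes tested were. These were 11 Gst, 7 Ugt and 8 Sult genes. Ugt2b36 had a log2 difference of 10.70 ± 0.47 (SE) between liver and kidney, Sult3a1 one of 10.10 ± 0.53, Gstm3 one of 8.05 ± 0.52, Gstp3 one of 7.30 ± 0.62 and Gstm1 one of 2.27 ± 0.59. Gstp3 was at 23.8 and 49.2 RPKM in liver, 8.62 and 7.41 in spleen and 0.228 and 0.5 in kidney, its paralog Gstp1 being present in all organs. Kidney was the highest organ for 4 members against 5.62% of all genes: Gsta2, Gstm5, Sult1c2 and Ugt2b38, with log2 differences to liver of 4.25 ± 0.73, 2.94 ± 0.30, 2.49 ± 0.36 and 7.09 ± 0.47. Against single organs, 29 of the 47 members were higher in liver than in kidney and 5 lower (29.9% of all genes differed), 34 higher in liver than in lung and 1 lower (38.9%), and 40 higher in liver than in spleen and 1 lower (43.6%). In the other pairs 18 were higher in kidney than in lung and 1 lower (30.5%), 35 higher in kidney than in spleen and 1 lower (42.4%), and 25 higher in lung than in spleen and 0 lower (21.8%). Lung was the highest organ for 0 members (4.94% of all genes) and spleen for 0 (5.41%), with 1 and 0 at an unadjusted p under 0.05 in edgeR against each other organ, and DESeq2 gave 0 and 0. Spleen was the lowest organ for 23 members (5.26%), liver for Sult2b1 alone (6.52%) and kidney for Gstp3 alone (2.82%). Sult2b1, which makes cholesterol sulfate in epithelia, was at 0 and 0.0052 RPKM in liver and between 0.322 and 0.598 in the control libraries of the other organs.

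These differences depend on how organs are put on 1 scale. The TMM factors of edgeR raised liver against the scale of reads on genes by 0.78 (log2) relative to kidney, 1.12 relative to lung and 1.04 relative to spleen at the median of 18445 genes, so the log2 differences of liver-high members lie above the ratios of RPKM by that much and those of kidney-high members against liver lie below them. On the scale of reads on genes, tried after the data had been seen, 23 members were highest in liver, 8 in kidney and 1, Gsto1, in lung. The 8 of kidney were the 4 above and Gstt2, Sult1d1, Ugt3a1 and Ugt3a2. In spleen there were 0 on either scale. Without kidney control replicate 1 the counts were 16 in liver and 0 in kidney.

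RefSeq promoter windows of the GRCm38.p6 assembly were at hand for 45 of the 50 genes. The letters GTTAAT, a half-site of the liver factor HNF1, were searched on both strands of the 250 bases before the start. They were found for 8 of the 45 genes (17.8%) and in 6.43% of all 32851 windows. Genes were counted with a match in any of their windows and the background by single windows, so these shares count unlike units. The letters stood in 5 of 25 liver-high members and in 0 of the 4 kidney-high members, and the choice of these letters followed the liver pattern. Counted in the same way, TGACNNNGC, the core of the antioxidant response element bound by NRF2, stood in 3 members (6.67%) and in 10.2% of all windows. TTGCNNCAA, a C/EBP site, stood in 2 members (4.44%) and in 1.74% of all windows. The windows of 1 such liver-high member of each family are shown, so that the letters can be seen in place. Capitals mark GTTAAT or its complement ATTAAC, and in Gsta3 also TGACNNNGC. The windows are chr1:21240335-21240584 on the plus strand for Gsta3, chr5:87337196-87337445 on the minus strand for Ugt2a3 and chr7:14123049-14123298 on the minus strand for Sult2a3, all read 5′ to 3′ toward the gene.
Gsta3: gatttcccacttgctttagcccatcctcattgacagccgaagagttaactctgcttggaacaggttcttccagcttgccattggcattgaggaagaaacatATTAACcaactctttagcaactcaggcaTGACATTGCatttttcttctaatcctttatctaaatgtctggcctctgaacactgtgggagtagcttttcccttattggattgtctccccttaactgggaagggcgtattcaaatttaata
Ugt2a3: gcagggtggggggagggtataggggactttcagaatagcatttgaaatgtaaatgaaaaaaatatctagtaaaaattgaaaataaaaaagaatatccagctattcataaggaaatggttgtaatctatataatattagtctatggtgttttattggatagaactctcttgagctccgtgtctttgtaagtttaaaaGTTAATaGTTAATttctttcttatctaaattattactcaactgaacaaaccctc
Sult2a3: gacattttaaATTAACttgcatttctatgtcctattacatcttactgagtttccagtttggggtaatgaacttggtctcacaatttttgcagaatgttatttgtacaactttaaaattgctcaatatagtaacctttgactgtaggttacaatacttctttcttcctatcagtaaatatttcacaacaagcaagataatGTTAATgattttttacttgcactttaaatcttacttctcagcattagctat
In Gsta3 the HNF1 half-site starts 149 bases and the antioxidant core 121 bases before the gene's start. In Ugt2a3 the first half-site starts 54 bases before it and in Sult2a3 240 bases before it. The 3 genes had 291 and 404 RPKM, 146 and 127 RPKM and 67.5 and 79.7 RPKM in the liver controls. These are matches of letters and no measure of binding. Near-identical paralogs such as Gstp1 and Gstp2 or the Gstm and Ugt2b genes, and genes that overlap on the same strand, can trade reads in the authors' counting, so their single values are uncertain.

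After cisplatin no member passed the test without a replicate block in any organ. In kidney 0 of 40 members tested were called by edgeR (log2 threshold of 0.4, adjusted p under 0.05), where 5.05% of all genes were. In liver 0 of 43 were called (0% of all genes), in lung 0 of 42 (2.09%) and in spleen 0 of 37 (0.181%). At an unadjusted p under 0.05 there were 5 members in kidney (19.0% of all genes), 0 in liver (9.28%), 4 in lung (13.0%) and 1 in spleen (4.34%). DESeq2 called 0 members in each organ, where it called 4.02% of all genes for kidney, 0.959% for liver, 2.28% for lung and 0.380% for spleen. A test against no change, in place of a log2 change of 0.4, also called 0 members in each organ, with 11.1%, 0%, 4.42% and 0.187% of all genes. With the replicate number as a block some members were called in kidney, liver and lung, Gsta4 and Gsto1 in kidney among them. Of all genes 20.6%, 7.32% and 11.2% were then called in these organs. The members are named in the closing section. Leaving out cisplatin replicate 1 or 2, with the control libraries kept apart so that the spread came from the control pair alone, gave 19 of 41 (26.4% of all genes) and 2 of 41 (19.3%) called members in lung, and 5 of 27 (9.86%) and 20 of 36 (18.2%) in spleen. The median log2 fold change over the members tested was 0.14 for kidney, 0.20 for liver, 0.13 for lung and 0.61 for spleen, against -0.003, 0.034, 0.028 and 0.017 over all genes tested. Kidney, liver, lung and spleen shared no control libraries, so the 4 values come from separate libraries. The labels do not name the animals, so whether the organs came from the same mice is not known. In lung and spleen, with the controls as 1 summed sample, the filter on low counts asked for enough reads in 1 sample only. Genes with reads in 1 sample alone so entered with their direction already set. The 0.61 of spleen includes such genes and is no measure of a response.

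**Figure D2:**
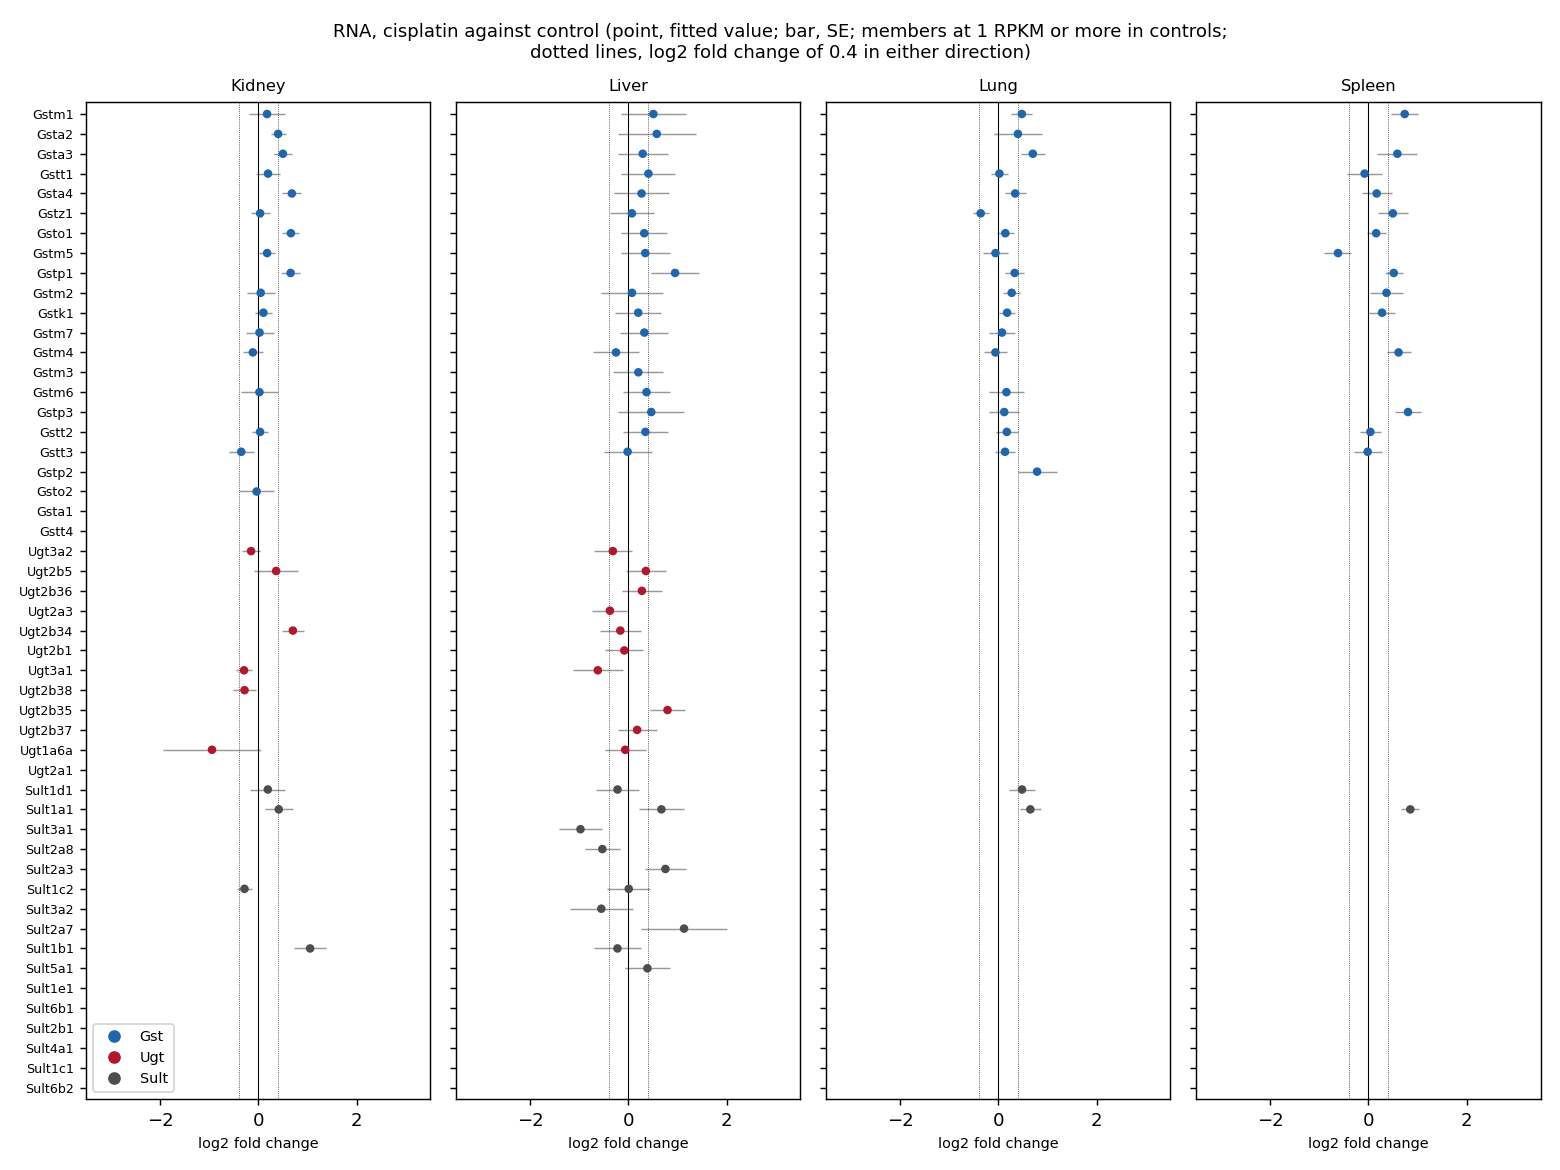
Log2 fold change of RNA after cisplatin (x axis) for the members (y axis) with a mean of at least 1 RPKM in the controls of an organ, 1 panel per organ; points are fitted values, bars are standard errors and dotted lines mark 0.4 in either direction. Gst points lie mostly to the right of 0, and 0 members were called in any panel.

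The Gst genes had more values above 0 than below in every organ. The counts were 16 against 5 for kidney, 17 against 3 for liver, 18 against 3 for lung and 17 against 3 for spleen. Their median log2 fold changes were 0.10, 0.32, 0.17 and 0.44, beside the medians over all genes given above. The share of all genes above 0 was not computed. In kidney, Gsta4, which removes the lipid peroxidation product 4-hydroxynonenal, stood at 166 and 204 RPKM in the controls and 293 and 281 after cisplatin (log2 fold change 0.68 ± 0.19, adjusted p = 0.236). Gsto1 was at 39.6 and 43.7 against 61.7 and 65.1 RPKM (0.66 ± 0.17, adjusted p = 0.217). Both cisplatin libraries were above both controls for each gene. Gstp1 showed the same order in all 4 organs, with 103 and 98.9 RPKM for kidney, 158 and 193 for liver, 69.5 and 83.2 for lung and 58.6 and 52.4 for spleen after cisplatin, each above both controls given above. In liver its log2 fold change was 0.95 ± 0.50 (adjusted p = 0.769). In spleen Gstm1 stood at 34.1 and 24.1 RPKM against 18.0 and 17.7 (0.74 ± 0.28, adjusted p = 1), and Gstp3 at 14.5 and 12.2 against 8.62 and 7.41 (0.80 ± 0.27, adjusted p = 1). The groups did not overlap, but with the controls counted as 1 sample the spread came from the 2 cisplatin libraries. The adipocyte and the B and T cell markers of lung and the pancreas and hepatocyte markers of spleen, given above, differed between the same libraries, and their part in the Gst values of these organs was not tested. In liver the 6 hepatocyte markers summed to 33958 and 62567 RPKM in the controls and 55006 and 64832 after cisplatin. The summed Gst level of liver was 1611 and 2923 RPKM against 2280 and 3531, so the groups overlapped. The part of the hepatocyte markers in it was not tested.

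The Ugt genes had medians of -0.21 in kidney, with 3 values above 0 and 7 below, and of -0.08 in liver, with 4 above and 7 below. In kidney the abundant Ugt3a2 was at 337 and 381 RPKM after cisplatin and Ugt3a1 at 48.9 and 53.1, each below both controls of that gene, while Ugt2b34 was at 46.3 and 32.6 against 29.6 and 21.1. In liver Ugt2b35 was at 83.4 and 45.4 RPKM against 42.6 and 30.4 (0.80 ± 0.36, adjusted p = 0.717), with no overlap of the groups. In lung 8 of 9 Ugt genes had values below 0, with a median of -2.89, at levels near 1 RPKM or less. The fitted folds of such genes depend on few reads. Ugt3a1, Ugt2b5, Ugt2a3 and Ugt2b38 passed the filter on low counts through the summed control alone, so their direction was set by the filter. Ugt3a2 stood at 0.792 and 1.21 RPKM in the controls and 0.187 and 0 after cisplatin, Ugt3a1 at 0.108 and 0.136 against 0.0145 and 0 (adjusted p = 0.182), Ugt2b5 at 0.117 and 0.238 against 0.0417 and 0.0066 (adjusted p = 0.224) and Ugt2a3 at 0.0342 and 0.196 against 0.0366 and 0.0116 (adjusted p = 0.258). The groups overlapped in Ugt2a3 and not in the other genes. The lung hepatocyte markers summed to 47.5 and 31.4 RPKM in the controls and to 25.8 and 0.84 after cisplatin, and the kidney tubule markers to 9.35 and 8.84 against 5.09 and 3.30. Their part in the Ugt values was not tested.

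In spleen 7 of 8 Ugt genes had values above 0, and nearly all of that RNA was in cisplatin replicate 1. Genes with reads almost only there passed the filter on low counts through that library. Their direction was set by the filter, so the count of genes above 0 is no measure of a response. Ugt2b5 was at 0.0278 and 0.0254 RPKM in the controls and 1.37 and 0 after cisplatin, and Ugt2b36 at 0 and 0.0114 against 1.11 and 0. The summed Ugt level was 5.36 RPKM in cisplatin replicate 1 and 0.124 in replicate 2. Sult3a1 followed the same pattern, with 0.729 RPKM in cisplatin replicate 1 and 0 in the other 3 libraries, and so did Sult1d1, with 1.02 RPKM there and 0, 0.105 and 0.0383 in the others. That library is the one with hepatocyte markers at 179 RPKM. The part of those markers in the Ugt and Sult values was not tested.

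Of the Sult genes, 7 lay above 0 and 2 below for kidney, 6 and 6 for liver, 6 and 6 for lung and 8 and 1 for spleen. The spleen count includes genes such as Sult3a1 and Sult2a3 that passed the filter on low counts through cisplatin replicate 1 alone. In kidney Sult1b1, which acts on thyroid hormones, was at 2.53 and 1.71 RPKM in the controls and 5.30 and 3.13 after cisplatin (1.05 ± 0.33, adjusted p = 0.204). Sult2a8, a bile acid sulfotransferase, was near the limit of detection there, with 0.252 and 0.0885 RPKM in the controls and no reads after cisplatin (adjusted p = 0.0829). These were 16 and 16 reads. The 6 hepatocyte markers summed in kidney to 104 and 145 RPKM in the controls and 62.2 and 67.4 after cisplatin, and their part in the Sult2a8 value was not tested. Its liver level was 112 and 88.9 RPKM in the controls and 73.7 and 63.0 after cisplatin. In liver Sult3a1 was at 155 and 71.6 against 47.9 and 59.5 RPKM (-0.97 ± 0.44, adjusted p = 0.686) and Sult2a3 at 67.5 and 79.7 against 102 and 138 (0.75 ± 0.42, adjusted p = 0.812). In spleen Sult1a1 was at 9.56 and 9.30 against 16.7 and 16.6 RPKM (0.85 ± 0.18, adjusted p = 0.908), and in lung at 39.8 and 38.3 against 53.4 and 68.3. Sult5a1 in lung stood at 0.818 and 0.773 against 1.58 and 1.51 RPKM (0.97 ± 0.30, adjusted p = 0.296). In none of these genes did the cisplatin libraries overlap the controls.

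Whether the response differed between organs was tested as an interaction in a fit over all organs. For 48 members and the 6 pairs of organs, edgeR called 0 in each pair. Of all genes 0.0733% were called for kidney against liver, 0.120% for kidney against lung, 0.304% for kidney against spleen, 0% for liver against lung, 0.0366% for liver against spleen and 0.0105% for lung against spleen. Members with an unadjusted p under 0.05 numbered 1 for kidney against liver, 1 for kidney against lung and 4 for kidney against spleen. There were 2 for liver against lung, 2 for liver against spleen and 9 for lung against spleen. The share of all genes at this cut was not computed. The 9 were Ugt2a3, Ugt2b1, Ugt2b36, Ugt2b38, Ugt2b5, Ugt3a1, Ugt3a2, Sult2a3 and Sult3a1, whose spleen RNA after cisplatin was nearly all in replicate 1. That library held the hepatocyte markers at 179 RPKM, and their part in these values was not tested.

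The genes around the conjugation enzymes were listed by role. Of the genes for glutathione supply and breakdown, such as Gclc and Gss, 0 of 13 tested in kidney and 0 of 14 in liver, lung and spleen were called by edgeR. The same held for the supply of UDP-glucuronic acid and PAPS (0 of 12 in each organ) and for conjugate transporters such as Abcc2 (0 of 10 in spleen and 0 of 11 in each other organ). Among 16 regulators, Nfe2l2, which encodes NRF2, rose in kidney from 41.2 and 42.6 RPKM to 81.5 and 86.4 (log2 fold change 1.06 ± 0.17, adjusted p = 0.0424). Ppara, the nuclear receptor of fatty acid catabolism, fell there from 12.8 and 12.7 RPKM to 5.98 and 5.12 (-1.15 ± 0.18, adjusted p = 0.0376). In lung Ppara fell from 3.29 and 2.61 to 0.662 and 0.736 RPKM (-2.00 ± 0.28, adjusted p = 0.0323), beside the lower adipocyte markers given above, whose part in it was not tested. No regulator was called in liver or spleen. Beside these counts, the same test called 5.05% of all genes for kidney, 2.09% for lung, 0.181% for spleen and 0% for liver. At such shares a count of 0 in lists this short does not set them apart from other genes. Whether regulators were called more often than all genes was not tested.

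For repair and damage the number of targets matters, since cisplatin mostly links 2 neighbouring guanines. On the mean of both strands the 50 genes held between 34.0 and 97.5 GG per kb, with medians of 71.3 in Gst, 48.6 in Sult and 40.7 in Ugt genes. Sult1d1 was the poorest and Gstp1 the richest. A stretch of 120 intron bases of each is shown to make the difference visible, read 5′ to 3′ on the NTS in GRCm38 from chr5:87561970-87562089 and chr19:4036475-4036594, both on the minus strand. Capitals mark GG, a target on the NTS, and CC, which is GG on the TS.
Sult1d1: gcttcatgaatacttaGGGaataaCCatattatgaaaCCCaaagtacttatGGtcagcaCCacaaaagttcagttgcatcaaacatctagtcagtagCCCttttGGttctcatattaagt
Gstp1: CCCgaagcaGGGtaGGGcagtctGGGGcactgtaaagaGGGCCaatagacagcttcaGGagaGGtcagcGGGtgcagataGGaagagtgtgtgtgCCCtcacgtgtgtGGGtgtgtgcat
The Sult1d1 stretch holds 4 GG on the NTS and 6 on the TS, and the Gstp1 stretch 16 and 5. Reads were therefore counted per GG of the strand, as CPM (counts scaled to the depth of the library on genes) per 1000 GG. Gene lengths ran from 2093 to 84189 bp, with medians of 6025 bp in Gst, 22433 bp in Sult and 16265 bp in Ugt genes.

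Summed over these genes, XR-seq reads lay mostly on the TS in kidney, liver and lung, but not in spleen. The spleen sum includes 4 members called with more reads on the NTS, Gsto2, Sult1a1, Sult2b1 and Sult6b1, described further below. The spleen members at 1 RPKM or more in controls had their median, given at the end of this paragraph, on the TS side. Of the XR-seq reads summed over the members, 83.1% and 82.0% were on the TS for liver, 81.7% and 78.4% for kidney, 78.1% and 73.7% for lung and 51.4% and 50.4% for spleen. Over all genes the shares were 85.3% and 83.8% for liver, 85.1% and 85.1% for kidney, 90.0% and 89.7% for lung and 88.6% and 88.5% for spleen. The members lay below all genes in every library, by least in liver and by most in spleen. The median log2 TS minus NTS per GG of all 50 members was 0.17 in spleen, against 2.80 over all genes. In XR-seq the TS received more reads per GG than the NTS in 21 of the 50 members for kidney, 16 for liver, 13 for lung and 11 for spleen (edgeR quasi-likelihood test with the library as a block, adjusted p under 0.05). Over all genes the shares were 52.3%, 47.2%, 54.9% and 53.7%, so the members' shares were lower than the background. Members at 1 RPKM or more in controls were called in 18 of 27 cases for kidney, 15 of 38 for liver, 12 of 20 for lung and 10 of 15 for spleen, and those under 1 RPKM in 3 of 23, 1 of 12, 1 of 30 and 1 of 35. Over all genes 84.7%, 78.7%, 83.8% and 84.1% were called at 1 RPKM or more and 16.1%, 22.3%, 15.9% and 18.4% below it. The median log2 TS minus NTS per GG of members at 1 RPKM or more was 3.60 for kidney, 2.82 for liver, 3.56 for lung and 3.64 for spleen, against 3.44, 3.14, 4.14 and 4.14 over all such genes.

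**Figure D3:**
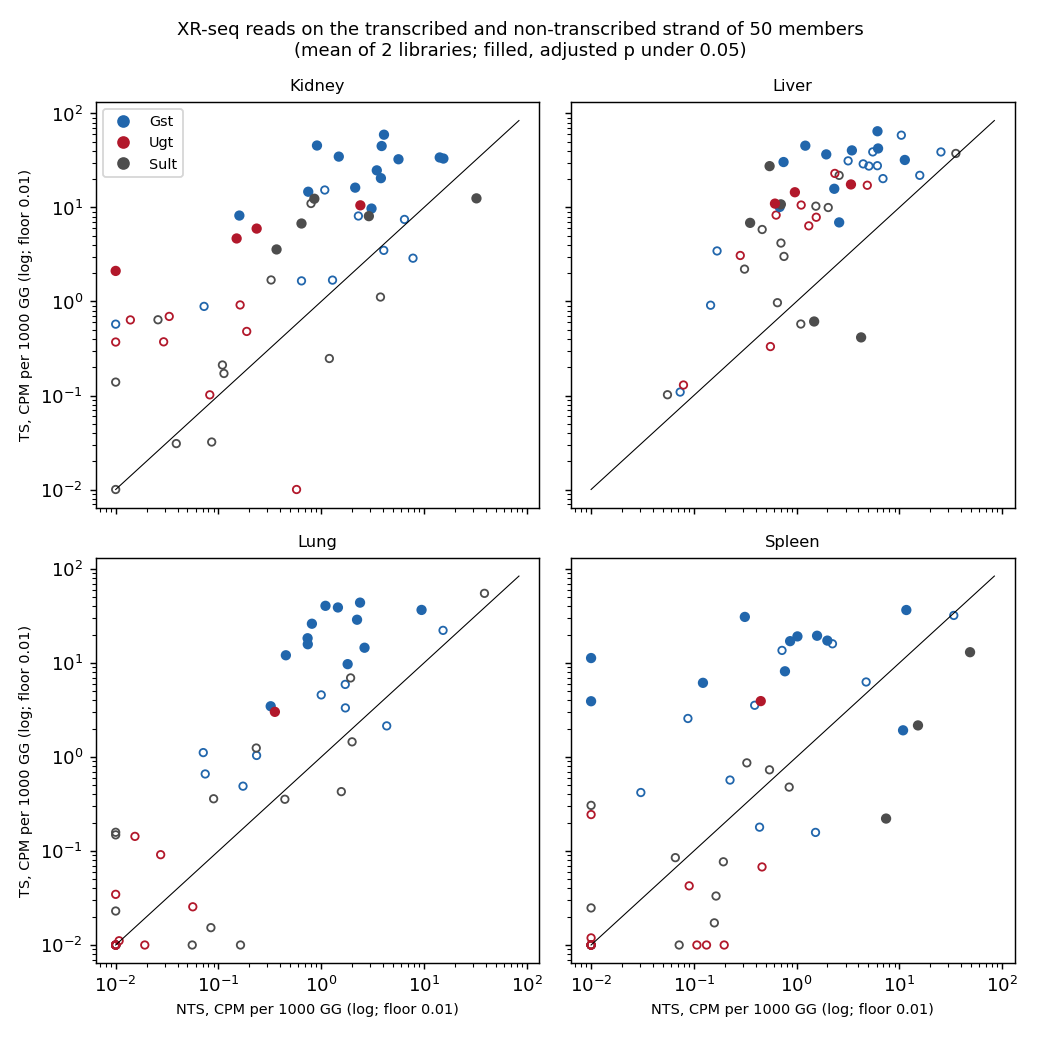
XR-seq reads on the TS (y axis) and the NTS (x axis) of the 50 members, as mean CPM per 1000 GG of 2 libraries on log axes, 1 panel per organ; filled points passed the strand test, the line marks equal values and values under 0.01 are drawn at 0.01. Most points lie above the line in kidney and liver, and most Ugt points of lung and spleen lie near 0.01.

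Gsta4, Gstm5, Gsto1, Gstt1, Gstt3 and Ugt1a6a were called in all 4 organs, 6 further members in 3 organs, 2 in 2 and 15 in 1. Of the calls in lung and spleen, Ugt1a6a was the single Ugt gene and there was no Sult gene. Depth was low for part of them: 20 members had under 20 XR-seq reads in lung and 22 in spleen over both strands and libraries, against 11 in kidney and 2 in liver. Gsta4 was the clearest case in liver, with 2612 TS and 41 NTS reads in replicate 1 and 2142 and 56 in replicate 2 (log2 TS minus NTS per GG of 5.39 ± 0.78). In kidney it had 640 and 66 and 1316 and 174 (2.87 ± 0.69), in lung 340 and 32 and 245 and 16 (3.43 ± 0.72) and in spleen 112 and 0 and 339 and 12 (5.47 ± 0.86). The TS was above the NTS in all 8 libraries. Ugt1a6a, the phenol glucuronosyltransferase whose annotated span covers much of the Ugt1a locus, had 4289 and 867 and 3209 and 608 reads in liver (2.38 ± 0.37). Its span of 84 kb (chr1:88134809-88218997) overlaps Ugt1a1, Ugt1a2 and other annotated genes of the locus, so these reads cannot be given to a single isoform. On the other strand Gm20528 overlaps 99.5% of that span, and its part in the strand values of Ugt1a6a was not tested. Gstm1 had 426 and 19 and 411 and 68 reads in kidney (3.60 ± 0.77) and 1200 and 59 and 716 and 49 in lung (4.19 ± 0.77). In liver, where its RNA was highest, it had 428 and 154 and 376 and 138 (1.55 ± 0.69) and was not called.

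The liver values need a remark on the fit, since 4 organs shared the spread of each gene. Ugt2b36, with 473 and 84 and 324 and 75 liver reads, was not called (2.34 ± 1.33). When each organ was fitted alone, a choice made after these values had been seen, 40 members passed in liver, all 16 of the first fit among them (59.9% of all genes), and 4 in kidney (40.2%). In the fit over 4 organs, 2 members passed in liver without either liver replicate, and 31 and 30 without kidney replicate 1 or 2. For Sult1a1, at 482 and 447 and 438 and 441 reads in liver, the strands were level (0.09 ± 0.39).

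Measured as a level, TS repair in liver was highest in Gstt3 with 61.6 and 67.8 CPM per 1000 GG and Gstp3 with 62.6 and 55.0, and lowest in Sult1c1 with 0.0905 and 0.113 and Ugt2a1 with 0.408 and 0.255. In kidney Gsto1 led with 66.2 and 52.8, followed by Gstm5 with 27.0 and 64.3, while Sult6b2 (0.213 and 0.281) and Gsta1 (0 and 1.15) were lowest among members with at least 20 reads. In lung Sult1a1 led with 56.7 and 53.4 and Gstm1 followed with 47.8 and 40.0, and Sult1b1 (0.297 and 0) and Sult6b2 (0.526 and 0.184) were lowest. In spleen Gstt2 led with 44.4 and 28.8 and Gstz1 followed with 37.9 and 26.3, and Ugt3a2 (0 and 0.135) and Gstm6 (0 and 0.315) were lowest. The replicates of the leading pair overlapped in kidney, liver and spleen and not in lung.

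Across the 50 members the TS level followed the RNA level of the organ's controls, with Spearman's rho of 0.74 for kidney, 0.52 for liver, 0.84 for lung and 0.89 for spleen. On the NTS rho was 0.45, 0.46, 0.66 and 0.64. These describe 50 genes that share libraries and, within clusters, sequence. Gstm1 shows the limit of that order, with mean TS values of 45.1, 20.3, 43.9 and 17.3 CPM per 1000 GG in kidney, liver, lung and spleen while its RNA was highest in liver. Gstp1 held mean TS values of 32.6, 27.8, 39.0 and 30.9, and no pair of organs passed the test for it (adjusted p between 0.804 and 1).

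Between organs the TS counts were tested as for RNA. Of 47 members tested, 20 had more TS reads in liver than in each other organ, where 8.15% of all genes had. Of these 20, 17 (85.0%) were also among the 26 genes with RNA highest in liver, of which they made up 65.4%. Without liver replicate 1 there were 8 such members and without replicate 2 there were 7. Ugt1a6a, Ugt3a1 and Ugt3a2 were liver-high in repair but not in RNA, and Gsta3, Gstk1, Gstm1, Gstz1, Sult1a1, Sult5a1, Ugt2b34, Ugt2b35 and Ugt2b37 in RNA but not in repair. Ugt3a1 had 1036 and 1245 TS reads in liver and 25 and 49 in kidney (log2 difference of liver minus kidney 4.35 ± 0.63), while its RNA was 24.9 and 17.1 RPKM in liver and 68.1 and 62.4 in kidney. Kidney was highest for Sult2b1 alone (2.34% of all genes), lung for 0 members (2.16%) and spleen for 0 (2.82%) in edgeR and in DESeq2, with 0 and 0 at an unadjusted p under 0.05, and lung was lowest for Gsta4 alone (1.87%). On the NTS 0 of 41 members tested were highest in liver by edgeR or DESeq2 (2.06%; 1 at an unadjusted p under 0.05), and Sult2b1 was highest in spleen (0.783%).

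Some members had an excess of XR-seq reads on the NTS: 1 in kidney, 2 in liver, 4 in spleen and 0 in lung, where 5.96%, 6.93%, 6.77% and 7.11% of all genes did. In lung 1 member had an unadjusted p under 0.05 in edgeR in that direction, and DESeq2 was not run on strands. The calls fell on 4 genes. Sult2b1 had 107 TS and 245 NTS reads in liver replicate 1 and 104 and 318 in replicate 2 (-1.24 ± 0.33) and 59 and 581 and 360 and 2444 in spleen (-2.85 ± 0.34). In kidney it was the other way, with 653 and 172 and 668 and 408 (1.47 ± 0.32). Sult6b1 had 5 and 222 and 37 and 233 in liver (-3.90 ± 0.97) and 0 and 87 and 18 and 308 in spleen (-5.12 ± 1.05). Gsto2, which reduces dehydroascorbate, had 22 and 131 and 100 and 569 in spleen (-2.50 ± 0.55) against 188 and 21 and 415 and 196 in kidney (2.09 ± 0.56). Sult1a1 had 38 and 178 and 124 and 214 in kidney (-1.44 ± 0.42) and 35 and 167 and 121 and 360 in spleen (-1.86 ± 0.42). The TS was below the NTS in every library of the groups called lower. All 4 genes overlap a gene on the opposite strand, as 11 of the 50 members do: Gsto2 lies wholly within Cfap43, Sult6b1 overlaps Gm26637 over 37.1% of its length, Sult2b1 overlaps Gm31597 over 15.0% and Lmtk3 over 1.7%, and Sult1a1 overlaps Sgf29 over 1.7%. The part of these genes in the strand values was not tested. Gsto1 and Sult5a1 also lie wholly within a gene of the other strand, Cfap43 and Gm20388, and Gsta3 is overlapped by Gm28836 over 61.0% of its length. Since RNA was counted without strand, the RNA of such pairs cannot be told apart.

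The strand difference was then compared between organs in 1 fit. In XR-seq 1 member differed for kidney against liver (6.76% of all genes), 2 for kidney against lung (10.3%), 4 for kidney against spleen (9.90%), 2 for liver against lung (18.3%), 2 for liver against spleen (13.3%) and 1 for lung against spleen (2.03%). Gsto2 and Sult2b1 made up 9 of these 12 differences. For Sult2b1 the log2 TS minus NTS was higher in kidney than in spleen by 4.32 ± 0.46 (adjusted p = 0.000994), and for Gsto2 by 4.59 ± 0.78 (adjusted p = 0.00714). The other 3 were Gstz1 and Ugt3a2, higher in kidney than in spleen, and Gstt1, lower in liver than in lung. Gstt1, a theta class enzyme, stood at 1.51 ± 0.48 in liver and 4.76 ± 0.56 in lung, so its TS excess was present in both.

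In Damage-seq few members differed between organs. Of 45 members tested, 5 differed between some pair of organs on the TS, where 17.8% of all genes did, and 0 of 48 did on the NTS (edgeR; 4.34% of all genes). Kidney and liver differed for all 5 (15.4% of all genes) and kidney and spleen for 1 of them (1.63%). On the NTS 14 members had an unadjusted p under 0.05 in some pair, and DESeq2 called 0 members on either strand. Gstt1 and Gstt3 were higher in kidney than in liver on the TS, with log2 differences of 1.40 ± 0.32 and 1.68 ± 0.44, and so were Gstm6 (1.91 ± 0.62) and Gstp3 (3.60 ± 1.14). Gstt1 had 119 and 89 TS reads in kidney and 16 and 18 in liver, from libraries of 6441367 and 5731390 and of 4037506 and 2440217 reads. Ugt2b38 was the reverse, with a kidney minus liver value of -1.60 ± 0.45 and a kidney minus spleen value of -1.85 ± 0.47, from 17 and 14 TS reads in kidney, 26 and 16 in liver and 15 and 17 in spleen. The Gst genes of this group have RNA in liver above kidney and Ugt2b38 has it in kidney above liver. In these 5, picked by the damage test, the organ with more RNA had the lower TS damage. The 5 are a smaller share than the 17.8% of all genes, and members not called were not compared in this way. A part of RNA level in these values was not tested.

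**Figure D4:**
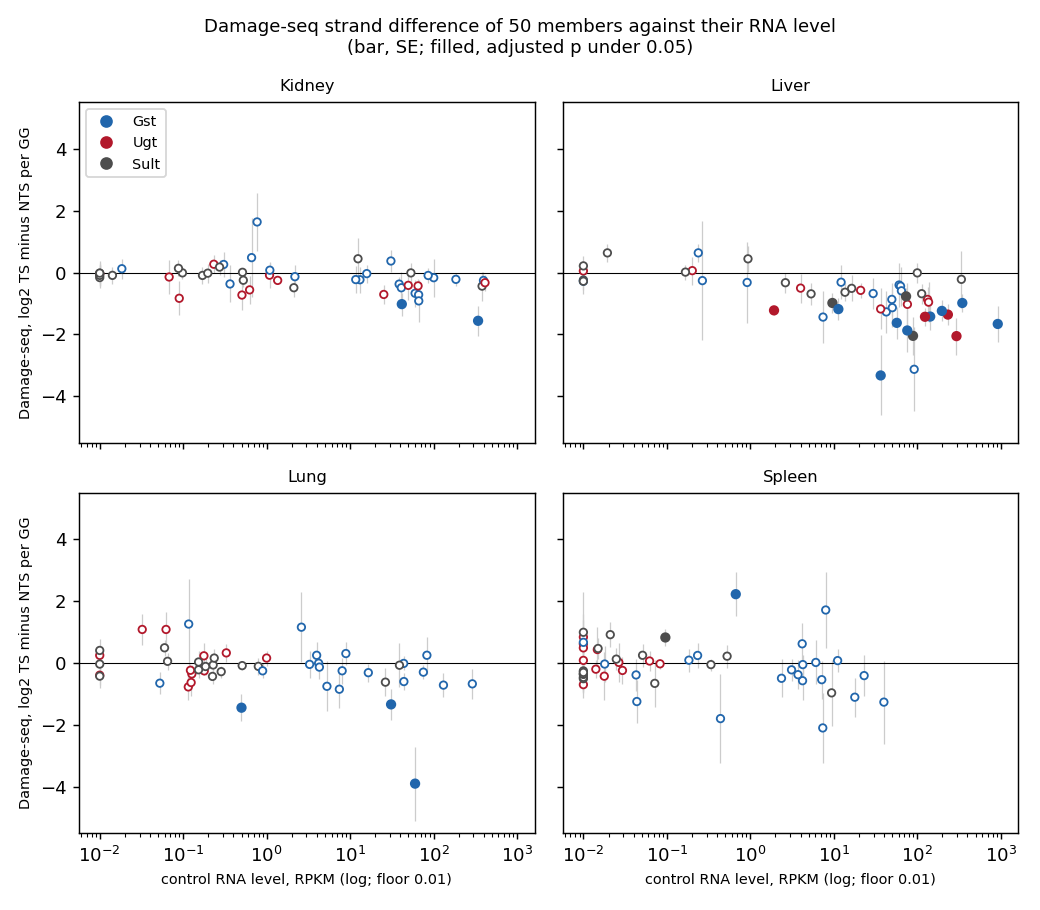
Damage-seq strand difference of the 50 members, as log2 TS minus NTS reads per GG with its standard error (y axis), against the mean control RNA level in RPKM on a log axis (x axis), 1 panel per organ; filled points passed the strand test and levels under 0.01 are drawn at 0.01. In liver the points above 1 RPKM lie mostly below 0 and those under 1 RPKM lie around 0.

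Within an organ, most members called with TS damage below NTS damage were in liver, at about the share of all genes there. In the other organs the members' shares were below those of all genes. The strand test called 15 of 50 members lower on the TS in liver (29.5% of all genes), 2 in kidney (18.7%), 3 in lung (24.5%) and 0 in spleen (11.8%). In spleen 0 members had an unadjusted p under 0.05 in that direction in edgeR. The median log2 TS minus NTS over the members was -0.69 in liver, -0.15 in kidney, -0.12 in lung and -0.05 in spleen, against -0.33, -0.19, -0.25 and -0.23 over all genes. In liver all 15 calls were among the 38 members at 1 RPKM or more, whose median was -0.98, and the 12 members under 1 RPKM had a median of 0.03. Over all genes of liver 63.8% were called at 1 RPKM or more, with a median of -1.23, and 4.96% below it, with a median of -0.05. The share of called members at 1 RPKM or more was thus lower than that of all such genes. Without liver replicate 1 there were 4 calls and without replicate 2 there were 7.

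The liver members called were Gsta2, Gsta3, Gstk1, Gstm1, Gsto1, Gstp3, Gstt1, Gstz1, Sult1b1, Sult1d1, Sult2a3, Ugt1a6a, Ugt2b36, Ugt2b5 and Ugt3a2. Ugt1a6a had the most reads, 123 on the TS and 306 on the NTS in replicate 1 and 68 and 151 in replicate 2 (-1.22 ± 0.15). Ugt3a2 had 32 and 79 and 18 and 52 (-1.43 ± 0.29), and Ugt2b36 had 25 and 66 and 11 and 29 (-1.36 ± 0.34). Ugt2b5 (4 and 19, 4 and 13), Sult1d1 (7 and 24, 2 and 9) and Gstp3 (0 and 5, 1 and 5) rested on few reads. The NTS was above the TS in both libraries for each of these genes. Of the others, Gsta3 had 29 and 69 and 16 and 45, Gsta2 18 and 43 and 11 and 32, Gstt1 16 and 42 and 18 and 31, Gstz1 14 and 29 and 4 and 17 and Sult2a3 48 and 91 and 30 and 43. Gsto1 had 10 and 28 and 3 and 12, Gstm1 8 and 20 and 2 and 13, Gstk1 4 and 17 and 2 and 8 and Sult1b1 24 and 47 and 29 and 38. Whether liver differed from the other organs in this was tested in the same fit. The strand difference of Ugt1a6a was lower in liver than in kidney by 0.97 ± 0.19, than in lung by 0.97 ± 0.19 and than in spleen by 1.20 ± 0.22 (adjusted p = 5.63e-05, 7.26e-05 and 2.55e-05), its reads in the other organs being 322 and 385 and 270 and 334 in kidney, 279 and 292 and 307 and 427 in lung and 88 and 97 and 109 and 107 in spleen. In the other organs the strands lay closer together in every library than in either liver library. Ugt2b36 differed from kidney and spleen, Ugt3a2 from lung and spleen and Ugt2b5 from lung. These were 2 members for kidney against liver (8.19% of all genes), 3 for liver against lung (5.71%) and 3 for liver against spleen (4.60%). The log2 values of the 15 genes ranged from -3.32 ± 1.29 in Gstp3 to -0.77 ± 0.26 in Sult2a3.

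In kidney the 2 members called were Gstm1, with 13 TS and 39 NTS reads and 7 and 24 (-1.56 ± 0.48), and Gsto1, with 15 and 53 and 30 and 38 (-1.02 ± 0.37). In lung they were Gstk1 with 7 and 28 and 11 and 23 (-1.33 ± 0.50), Gstm3 with 8 and 22 and 14 and 49 (-1.44 ± 0.44) and Gstp1 with 1 and 19 and 0 and 4 (-3.89 ± 1.20). Gstm3 was at 0.524 and 0.475 RPKM in the lung controls, Gstk1 at 31.4 and 30.6 and Gstp1 at 59.0 and 61.2. In spleen the test called Gstm7, with 8 and 2 and 14 and 3 (2.22 ± 0.72), and Sult4a1, a brain sulfotransferase, with 42 and 28 and 57 and 35 (0.82 ± 0.27), higher on the TS, as for 0.532% of all genes. Across the 50 members Spearman's rho between control RPKM and damage per GG on the TS was -0.55 in liver, 0.04 in kidney, -0.25 in lung and -0.13 in spleen, and on the NTS 0.03, 0.34, 0.13 and 0.02. The liver libraries held a median of 18.5 and 11.0 TS reads and 29.0 and 13.0 NTS reads per member, and 9 members in spleen and 5 in liver had under 20 Damage-seq reads over both strands and libraries.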

How the data were processed

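The deposited tables hold raw read counts per gene. According to the paper's methods, the authors used cutadapt, BWA (mm10) and Picard for Damage-seq and XR-seq, took out duplicate reads, retained those with GG where an adduct should lie and counted them by strand. RNA reads were mapped with STAR and counted with featureCounts. Versions are not given in the sources used here. RPKM used GENCODE M21 exon lengths.

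edgeR 4.0.16 in R 4.3.3 (quasi-likelihood, TMM, filterByExpr, Benjamini-Hochberg over all genes) tested RNA and organs against a log2 difference of 0.4. The strand test, against 0, kept genes with 10 GG on a strand and 20 reads, with offsets for GG and depth. DESeq2 1.42.0 was an alternative. Adjusted p under 0.05 was called. All members may be named. Values are given for the leading genes, the smallest p values and the members called, and the 4 lowest p per organ after cisplatin. p-values measure the spread between replicates in the groups that have them. With lung and spleen controls summed, RNA tests between organs took it from the kidney and liver control pairs. The cisplatin tests of lung and spleen took it from the cisplatin pairs. The scripts were tested on simulated counts. This group of genes and the gene lists were picked with earlier results of these data known, while the rule that sets the members uses names alone.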

Additional observations from a re-analysis of the deposited data

Results flagged for a closer look

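The strand difference, log2 TS minus NTS reads per GG, was tested between organs in edgeR, and 20 differences passed. In XR-seq that of Gsto2 was higher in kidney than in lung by 3.14 and than in spleen by 4.59, and higher in liver than in lung by 2.41 and than in spleen by 3.86. That of Sult2b1 was higher in kidney than in liver by 2.71, than in lung by 1.96 and than in spleen by 4.32, higher in liver than in spleen by 1.61 and higher in lung than in spleen by 2.36. The part of the opposite-strand genes that overlap both was not tested. In Gstz1 and Ugt3a2 it was higher in kidney than in spleen by 1.17 and 8.44, and in Gstt1 the value of liver minus lung was -3.25. In spleen Ugt3a2 was among the members with the lowest TS level, given above, and its control RNA was 0.117 and 0.0076 RPKM. The spleen side of its 8.44 therefore rests on few TS reads. In XR-seq adjusted p ranged from 0.000994 to 0.0488.

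In Damage-seq the strand difference of Ugt1a6a was higher in kidney than in liver by 0.97, and the value of liver minus lung was -0.97 and of liver minus spleen -1.20. In Ugt2b36 it was higher in kidney than in liver by 1.63 and liver minus spleen was -1.97. In Ugt3a2 liver minus lung was -1.59 and liver minus spleen -1.49, and in Ugt2b5 liver minus lung was -2.29. In Damage-seq adjusted p ranged from 2.55e-05 to 0.0432.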

How the results depend on the processing

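Of 118 alternatives to the 23 counts, leaving aside those without a replicate, 99 kept the count within 1.5 times, 4 lowered it and 15 raised it. A count of 0 in both settings was taken as kept. Members changed by cisplatin were 0 in every organ with DESeq2, with a test against 0 and on the scale of reads on genes. Without a filter on low counts there was 1 in kidney (Sult2a8) and 2 in lung (Ugt3a1, Ugt3a2). With lung controls kept apart there was 1 (Sult5a1), where 9.44% of all genes were called. With the replicate number as a block, and the control libraries of lung and spleen kept apart, there were 6 in kidney (Gsta4, Gsto1, Gstp1, Sult1b1, Sult2a8, Ugt2b34; 20.6% of all genes), 1 in liver (Sult1e1; 7.32%), 1 in lung (Ugt3a1; 11.2%) and 0 in spleen (1.03%), and 1 member was highest in lung RNA (Sult1c1). The labels do not say that a number marks a batch. The paper's methods report a batch adjustment with ComBat, and their text does not name the batches. Same-numbered libraries deviated together, with correlations that were lowest in lung (0.088), then 0.24 for spleen, 0.52 for liver and 0.65 for kidney, over 2 pairs each, and the block changed no other of these counts beyond 1.5 times. With controls kept apart and no block, 1 member was likewise highest in lung RNA (Sult1c1) and 1 in spleen (Sult6b1). On the scale of reads on genes there were 8 in kidney and 1 in lung, 8 differed in Damage-seq TS and 1 in NTS (Gstt3). Without a filter 1 differed in NTS, and with DESeq2 0 differed in TS. Fitting each organ alone, added after seeing the data, gave 4 in kidney and 40 in liver for XR-seq, and 1 in kidney (Gstm1) and 1 in lung (Gstm3) for Damage-seq. The cause of these shifts was not tested.

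Leaving out 1 library at a time gave 0 to 2 members changed by cisplatin in kidney (1 and 2 without control replicate 1 or 2), 0 to 3 in liver (3 and 1 without cisplatin replicate 1 or 2 and 1 without control replicate 2), 0 to 19 in lung and 0 to 20 in spleen. In lung 19 came without cisplatin replicate 1 and 2 without replicate 2, and in spleen 5 and 20, with controls kept apart, so that the spread came from the control pair alone. RNA-high members numbered 0 to 5 in kidney and 16 to 28 in liver, with 0 and 16 without kidney control replicate 1, and 0 in lung and spleen. XR-seq TS gave 0 to 2 in kidney (2 without kidney replicate 1 and 0 without spleen replicate 1), 7 to 24 in liver (8 without liver replicate 1 and 7 without replicate 2), and 0 in lung and spleen, and XR-seq NTS gave 0 to 3 in liver (3 without kidney replicate 2 and 1 without either spleen replicate). Damage-seq gave 1 to 10 on the TS (1 without kidney or liver replicate 1, 2 without kidney replicate 2, and 9 and 10 without lung replicate 1 or 2) and 0 to 2 on the NTS (1 without kidney replicate 2 and 2 without either lung replicate). The strand counts were 13 to 23 in kidney, 2 to 31 in liver, 5 to 19 in lung and 8 to 14 in spleen for XR-seq, and 0 to 3, 4 to 17, 2 to 3 and 0 for Damage-seq. XR-seq strand calls fell to 13 in kidney without either liver replicate and to 5 in lung without lung replicate 1, and rose in liver to 31 and 30 without kidney replicate 1 or 2. Damage-seq strand calls in kidney were 0 and 1 without kidney replicate 1 or 2. In liver 2 members, Gsta4 and Ugt1a6a, were left in XR-seq without either liver replicate, and in Damage-seq 4 without replicate 1 and 7 without replicate 2. XR-seq totals ran from 10658675 to 59779770 reads, and the part of depth in these counts was not tested.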
